A study of Mus musculus with 32 samples.

Results

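The 10 nuclear receptor genes described here are Esrrb, Esrra, Nr0b1, Nr5a2, Nr6a1, Nr2f1, Nr2f2, Rara, Rarg and Rxra, and they were followed in mouse embryonic stem cells (ESCs) leaving pluripotency with different amounts of β-catenin. They were chosen by name and matched by symbol to the Ensembl identifiers of the count tables, which hold 31053 genes. All 10 were among the 15280 genes with enough reads to be tested. The cells were C1, a β-catenin knockout ESC line that carries lentiviral constructs for a doxycycline-inducible fusion of a destabilizing domain, mCherry and a constitutively active β-catenin. Doxycycline (dox) starts transcription of the fusion, and trimethoprim (TMP) stabilizes its protein. At day 0, C1 had received TMP alone (10 μM, 48 h), whereas C1M and C1H were the fractions with moderate and high mCherry sorted from cells given the same TMP with dox (100 ng/mL). The day 4 groups had been kept in differentiation medium for 4 days after sorting. C1T came from C1 and had TMP alone, C1MV and C1MDT came from C1M, and C1HV and C1HDT came from C1H. The inducers were replaced by DMSO in C1MV and C1HV (withdrawn) and both were kept in C1MDT and C1HDT. Each group had 4 libraries, labelled as biological replicates. The p-values measure the spread between libraries within groups, estimated over all 8 groups in 1 fit. The paper's heatmap caption describes the 4 samples averaged per group as coming from the same experiment. All 8 groups share the knockout and the transgenes and derive from this 1 line, so no group has endogenous β-catenin. The paper describes short culture in 2i/L before sorting, whereas GEO's labels describe serum with LIF.

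Nuclear receptors are transcription factors that bind DNA through zinc fingers and carry a ligand pocket that is filled by small lipophilic molecules in some members and has no known natural ligand in the orphan members. The orphan receptors Esrrb, Nr5a2 and Nr0b1 belong to the transcription factor network of naive mouse ESCs, and Esrrb is a well known gene downstream of Wnt signalling there. Nr6a1, or germ cell nuclear factor, acts in the opposite direction as a repressor of Pou5f1 during differentiation. Rara and Rarg are receptors for retinoic acid and bind DNA as partners of Rxra, and Nr2f1 and Nr2f2 (COUP-TF I and II) are orphan receptors that rise in many differentiating lineages.

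Libraries were read from the 3′ ends of transcripts (QuantSeq), and 1366951 to 3648787 reads per library were counted on genes (median 2402467). Values are counts scaled to a common library size (CPM, the usual unit of read counts) scaled with TMM factors, and 3 counts, taken as the floor, correspond to 0.837 to 2.14 of these CPM, depending on the library. A floor of this kind allows for counting error only. None of the 10 genes was at this floor in all libraries of a group. Differences are log2 fold changes with their standard error (SE), and a gene was called when the adjusted p (FDR) of edgeR's quasi-likelihood test over all tested genes was under 0.05. For edgeR the SE was worked back from the log2 fold change and the F value of this test. It is therefore approximate, and least dependable for very small changes. Reads that aligned uniquely but fell on no gene took 19.5% to 23.1% of unique reads at day 0 and 10.1% to 15.6% at day 4, and the part of this in the day comparisons was not tested.

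Reads of Ctnnb1, the gene of β-catenin, were examined first as a check of the labels. They came to 7.81 ± 2.62 CPM in C1 (SD, n = 4), 12.2 ± 3.84 CPM in C1M and 41.1 ± 5.70 CPM in C1H, so that C1H was above both others in every library. C1M did not differ from C1 by the test (log2 fold change 0.61 ± 0.25, FDR = 0.055), and the libraries overlapped. At day 4 the means were 9.74 CPM in C1T, 9.16 CPM in C1MV and 6.21 CPM in C1HV, against 29.2 CPM in C1MDT and 30.8 CPM in C1HDT. Per the paper the knockout lacks the whole coding sequence of β-catenin. Reads of the transgene and of what is left of the locus cannot be told apart, so the reads in C1 do not check the deletion. Markers of pluripotent stem cells (8 genes, Pou5f1 and Sox2 among them) summed to between 2460 and 2760 CPM at day 0 and, at day 4, to 1750 to 1870 CPM in C1T, 1420 to 1690 CPM in the withdrawn groups and 1200 to 1390 CPM in the kept groups, levels that did not overlap. None of these genes was at the floor. In bulk RNA fewer cells of a type and less RNA per cell cannot be told apart.

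**Figure D1:**
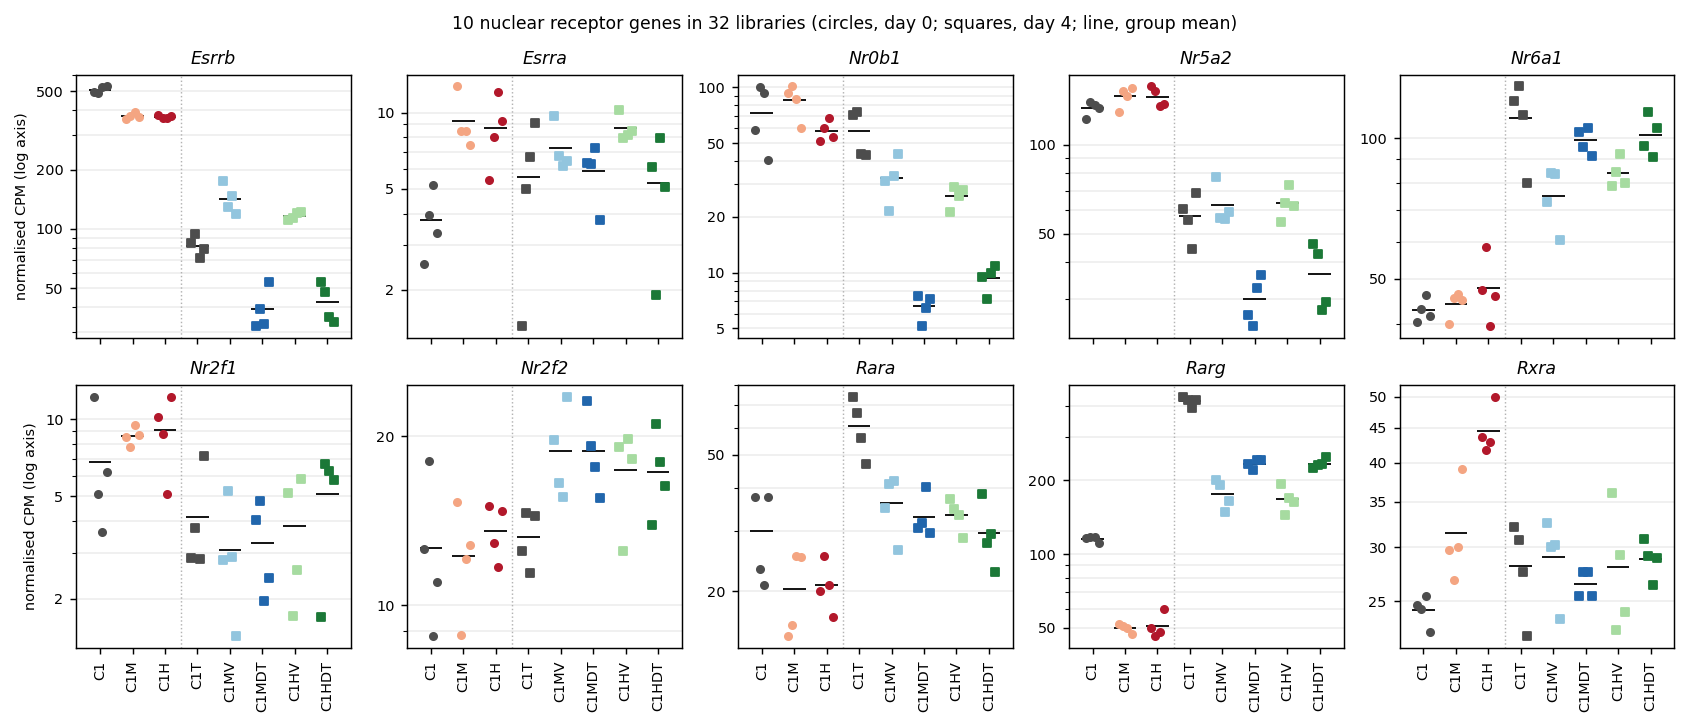
Normalised CPM on a log axis for each of the 10 genes in every library, with groups along the horizontal axis, circles for day 0, squares for day 4 and a line at the group mean (n = 4). Esrrb ran from 527 CPM in C1 to 32.3 CPM in C1MDT, and all 4 C1T libraries of Rarg, between 393 and 438 CPM, lay above every other library.

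Esrrb and Nr5a2 were lower at day 4 than at day 0 in all 5 comparisons and Nr0b1 in the 4 of cells that had carried β-catenin, and the group means of all 3 were lowest where the inducers were kept. Their promoters are shown because all 3 were lower in the kept than in the withdrawn groups. Each line gives the 250 bases before the first listed RefSeq start (GRCm38.p6), in the direction of transcription. Capitals mark AGGTCA, the half-site bound by many nuclear receptors, and CTTTGA, the core bound by TCF/LEF factors, searched on both strands. The windows lie at chr12:86360867-86361116 (plus strand) for Esrrb, chr1:136960449-136960698 (minus strand) for Nr5a2 and chrX:86191525-86191774 (plus strand) for Nr0b1.
Esrrb: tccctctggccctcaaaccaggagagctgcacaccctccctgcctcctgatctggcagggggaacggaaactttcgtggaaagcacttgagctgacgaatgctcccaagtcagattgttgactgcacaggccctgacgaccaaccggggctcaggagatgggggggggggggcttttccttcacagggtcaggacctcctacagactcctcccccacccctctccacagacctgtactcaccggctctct
Nr5a2: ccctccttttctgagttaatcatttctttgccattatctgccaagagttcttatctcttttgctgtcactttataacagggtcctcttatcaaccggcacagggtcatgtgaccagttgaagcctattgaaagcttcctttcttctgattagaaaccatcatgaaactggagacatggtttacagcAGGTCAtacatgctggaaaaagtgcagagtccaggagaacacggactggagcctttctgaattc
Nr0b1: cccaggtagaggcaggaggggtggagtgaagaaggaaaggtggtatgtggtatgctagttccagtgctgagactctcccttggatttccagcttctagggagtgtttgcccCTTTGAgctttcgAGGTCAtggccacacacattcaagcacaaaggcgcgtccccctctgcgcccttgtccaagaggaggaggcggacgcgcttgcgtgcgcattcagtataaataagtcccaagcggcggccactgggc

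Neither motif occurs in the Esrrb window, the Nr5a2 window holds 1 half-site 64 bases before the start, and the Nr0b1 window holds the half-site 126 and the TCF/LEF core 139 bases before the start. Among 32851 mouse promoter windows of this length, 14.0% hold the half-site and 13.8% the TCF/LEF core. Over 19 windows listed for the 10 genes, 5 hold a half-site and 2 a TCF/LEF core, the second being that of Nr2f2. These matches describe letters in the sequence and do not show binding.

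Esrrb (chr12:86361117-86521628, plus strand, protein coding; GRCm38 here and below) encodes an orphan receptor that sustains self-renewal of naive ESCs. Its level was 494, 487, 525 and 527 CPM in the C1 libraries, 359, 373, 390 and 371 CPM in C1M and 379, 364, 367 and 375 CPM in C1H. Every C1 library was above all 8 libraries of the sorted fractions, which overlapped each other. At day 4 it was 84.4, 94.1, 71.0 and 79.6 CPM in C1T, 174, 129, 147 and 119 CPM in C1MV and 111, 114, 120 and 122 CPM in C1HV. With the inducers kept it was 32.3, 39.1, 32.9 and 53.6 CPM in C1MDT and 53.7, 47.7, 35.6 and 33.7 CPM in C1HDT. The day 4 groups thus fell into 3 levels that did not overlap, with the withdrawn groups highest, C1T between and the groups with the inducers kept lowest. Within the highest and the lowest of these levels the moderate and high fractions overlapped.

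Nr5a2 (chr1:136842571-136960448, minus strand, protein coding), also called Lrh-1, encodes an orphan receptor that can replace Pou5f1 in reprogramming. Its level was 123, 140, 137 and 134 CPM in C1, 129, 153, 147 and 156 CPM in C1M and 158, 152, 136 and 138 CPM in C1H. These groups overlapped, and neither fraction differed from C1 by the test. By day 4 its values were 60.4, 55.8, 44.3 and 68.5 CPM in C1T, 77.8, 56.6, 55.9 and 59.2 CPM in C1MV and 54.7, 63.7, 73.1 and 61.8 CPM in C1HV. These 3 groups overlapped as well and lay below all day 0 libraries. It was 26.5, 24.3, 32.7 and 36.1 CPM in C1MDT and 46.2, 42.5, 27.6 and 29.3 CPM in C1HDT. Both groups were below the withdrawn groups without overlap, while C1HDT overlapped C1T at its upper end.

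Nr0b1 (chrX:86191764-86195947, plus strand, protein coding), also called Dax1, encodes an atypical receptor without the usual DNA-binding domain that acts as a corepressor. Its level was 58.7, 100, 92.9 and 40.7 CPM in C1, 92.9, 101, 86.3 and 60.6 CPM in C1M and 51.1, 60.3, 68.1 and 53.8 CPM in C1H. The C1 libraries spread widely (coefficient of variation 38.5%) and spanned those of C1H. After 4 days there were 71.0, 73.7, 43.8 and 43.1 CPM in C1T, 31.4, 21.4, 33.4 and 43.5 CPM in C1MV and 21.2, 29, 25.8 and 28 CPM in C1HV. C1T overlapped C1, and C1MV reached C1T with 1 library. It was 7.49, 5.16, 6.42 and 7.22 CPM in C1MDT and 9.52, 7.16, 10.0 and 10.9 CPM in C1HDT, below every library of the other 6 groups. The means of the highest and lowest groups, C1M and C1MDT, were 13.0-fold apart.

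The first question was how the genes moved over 4 days of differentiation without and with β-catenin. In C1T vs C1, where no β-catenin was induced, 49.2% of all tested genes were called, and 5 of the 10 receptor genes were. Esrrb fell by 2.62 ± 0.10 on the log2 scale (SE, FDR = 1.5e-42) and Nr5a2 fell by 1.23 ± 0.12 (FDR = 2.1e-17). Rarg rose by 1.87 ± 0.09 (FDR = 3.1e-46), Nr6a1 by 1.39 ± 0.12 (FDR = 1.8e-21) and Rara by 1.02 ± 0.16 (FDR = 1.4e-07). Libraries of C1T and C1 did not overlap in any of these 5 genes. Nr0b1 was not called (log2 fold change -0.30 ± 0.23, FDR = 0.30), nor were Esrra, Nr2f1, Nr2f2 and Rxra. The median absolute log2 fold change was 0.91 over the 10 genes and 0.61 over all tested genes.

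In cells that had carried exogenous β-catenin, 8 of the 10 genes were called in C1MV vs C1M (45.8% of all genes), 8 in C1MDT vs C1M (52.4%), 8 in C1HV vs C1H (47.0%) and 9 in C1HDT vs C1H (55.7%). These 4 comparisons share the C1M or the C1H libraries in pairs. Esrrb fell in each of them, with log2 fold changes of -1.38 ± 0.09 (C1MV), -3.23 ± 0.10 (C1MDT), -1.67 ± 0.09 (C1HV) and -3.12 ± 0.10 (C1HDT). Nr5a2 fell as well, with -1.23 ± 0.11, -2.27 ± 0.12, -1.20 ± 0.11 and -2.01 ± 0.12 in the same order. Nr0b1 fell, with -1.44 ± 0.23 and -1.17 ± 0.26 after withdrawal (C1MV and C1HV) and -3.71 ± 0.30 and -2.61 ± 0.29 with the inducers kept (C1MDT and C1HDT), at FDR between 3.4e-11 and 0.00050. Of all tested genes, 1.98% had a log2 fold change at or below that of Nr0b1 in C1MDT vs C1M.

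**Figure D2:**
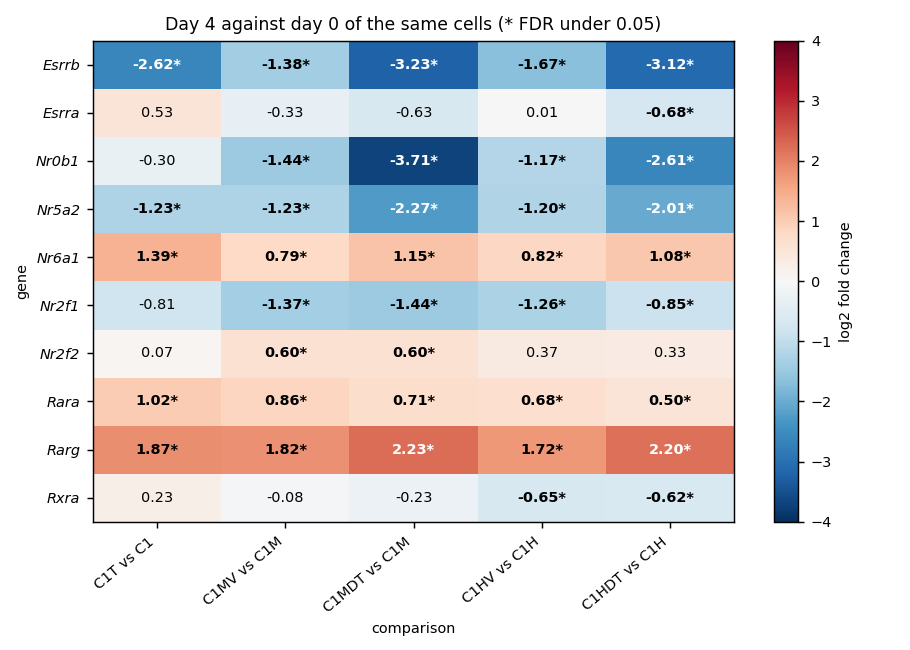
Log2 fold changes (colour and number) of the 10 genes, in rows, for day 4 against day 0 of the same cells, in columns, with an asterisk and bold type where FDR was under 0.05. Esrrb and Nr5a2 fell and Rarg, Rara and Nr6a1 rose in all 5 columns, while Nr0b1 was called in the 4 columns of cells that had carried β-catenin.

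Whether a day response differed from that of C1T was tested as a difference of differences, in which the C1T and C1 libraries are shared by all 4 tests. Among all genes, 22.5% were called for C1MV, 24.4% for C1MDT, 21.9% for C1HV and 25.2% for C1HDT, and 3, 4, 3 and 5 of the 10 genes were called. The decrease of Esrrb was smaller than in C1T after withdrawal, by a log2 difference of 1.24 ± 0.13 in C1MV (FDR = 7.3e-13) and 0.95 ± 0.14 in C1HV (FDR = 2.4e-08). It was larger than in C1T where the inducers were kept, by -0.61 ± 0.15 in C1MDT (FDR = 0.00070) and -0.50 ± 0.15 in C1HDT (FDR = 0.0056). The last of these was -0.39 (FDR = 0.056) without C1T replicate 2 and -0.36 (FDR = 0.067) without C1HDT replicate 4. The decrease of Nr0b1 exceeded that in C1T by -1.15 ± 0.33 in C1MV, -3.41 ± 0.39 in C1MDT and -2.31 ± 0.38 in C1HDT (FDR = 0.012, 1.6e-07 and 3.4e-05), of which the first was -1.13 (FDR = 0.083) when only the groups compared were fitted, and the C1HV value of -0.88 ± 0.35 did not pass (FDR = 0.074). For Nr5a2 the response differed where the inducers were kept, by -1.04 ± 0.17 in C1MDT and -0.78 ± 0.17 in C1HDT. After withdrawal its estimates were 0.00 in C1MV and 0.03 in C1HV, with FDR of 1.0 and 0.93.

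**Figure D3:**
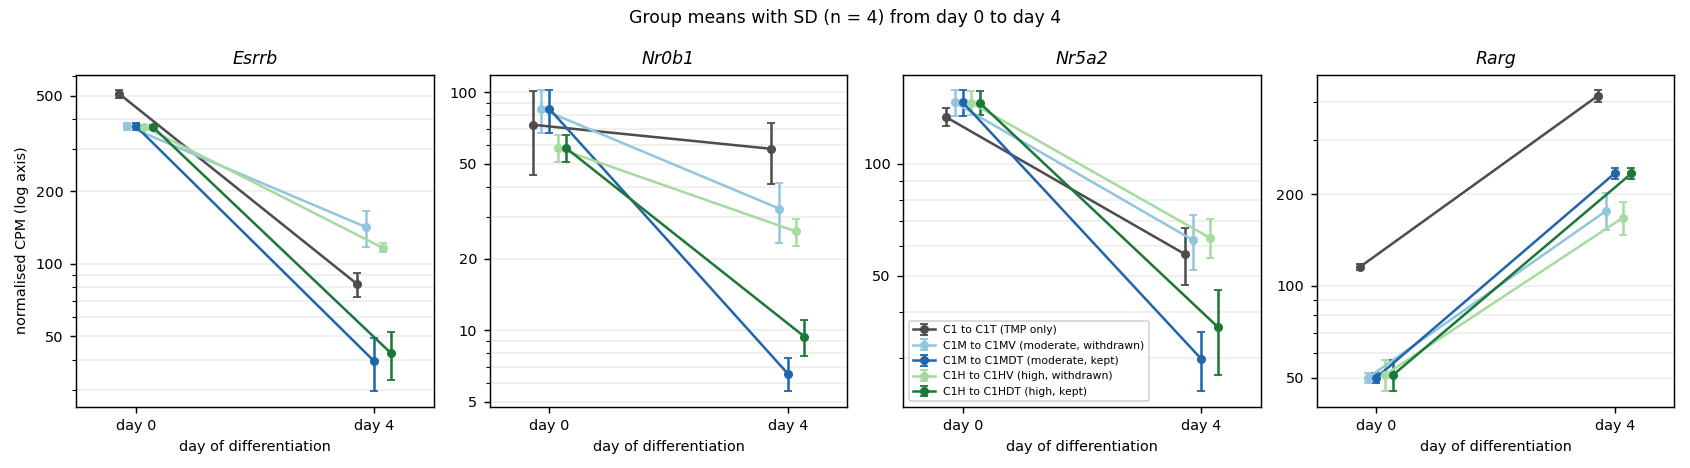
Group means with SD (n = 4) of Esrrb, Nr0b1, Nr5a2 and Rarg in normalised CPM on a log axis, with a line from the day 0 group to the day 4 group derived from it. Esrrb, Nr0b1 and Nr5a2 ended lowest in C1MDT and C1HDT, and Rarg started and ended highest in the cells with TMP alone.

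The second question was how groups with and without exogenous β-catenin differed at each day. C1M and C1H differ from C1 in the dox they received and in the mCherry sort as well as in β-catenin, and these cannot be told apart. At day 0, 26.3% of all genes were called in C1M vs C1 and 25.9% in C1H vs C1, against 4 and 5 of the 10 receptor genes, and both comparisons use the same C1 libraries. Of the genes called, 54.4% and 53.4% were higher, or 64.5% and 66.4% with scaling by library size only. Esrrb fell by 0.44 ± 0.08 in C1M (FDR = 1.3e-05) and by 0.45 ± 0.08 in C1H (FDR = 9e-06). Nr5a2 had log2 fold changes of 0.14 ± 0.10 in both and Nr0b1 of 0.24 ± 0.21 and -0.31 ± 0.22, none of them called. Between the fractions, C1H vs C1M, 1.77% of all genes were called and 1 of the 10 genes, Rxra. This count of all genes, 271, moved to between 117 and 229 on leaving out 1 library and to 570 when only these fractions were fitted. Nr0b1 had -0.55 ± 0.21 (FDR = 0.23) there, and -0.54 ± 0.11 (FDR = 0.0012) when only the libraries of these fractions were fitted. Marker sums moved with the day 0 groups too. A list of 8 endoderm genes (Gata4 and Sox17 among them) summed to between 13.9 and 24.7 CPM in C1, 32.6 and 44.7 CPM in C1M and 34.1 and 39.9 CPM in C1H, and 8 neuroectoderm genes (Sox1 and Pax6 among them) to between 246 and 300 CPM, 202 and 220 CPM and 182 and 212 CPM. In neither list did C1 overlap a sorted fraction. Pax6, Hes5 and Zic1 were at the floor in C1, and only Hes5 of the neuroectoderm genes in C1M and C1H, so Pax6 did not follow the sum. Of the endoderm genes, Sox7 and Cxcr4 were at the floor in C1 and Sox7 in C1M and C1H. The stem cell markers ran from 2610 to 2760 CPM in C1, above the 2460 to 2530 CPM of C1H, and C1M overlapped both. The part of these shifts in the day 0 differences was not tested.

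At day 4 all comparisons with C1T share its 4 libraries. C1MV and C1HV differ from C1T also in TMP, which C1T alone of the 3 had during the 4 days (10 μM), and in the earlier dox and sort, so that these cannot be told apart from β-catenin here or in the day responses. C1MDT and C1HDT differ from C1T in dox before and during the 4 days (100 ng/mL) and in the sort. These cannot be told apart from β-catenin either, here or in the day responses. Called genes made up 30.2% of all genes for C1MV, 28% for C1HV, 33.4% for C1MDT and 33.5% for C1HDT, and 5 of the 10 receptor genes were called in each. With scaling by library size only, the share of higher genes among those called moved from 49.1% to 59.4% for C1HV. Esrrb was higher than in C1T after withdrawal, by 0.80 ± 0.10 in C1MV (FDR = 4.4e-10) and 0.50 ± 0.11 in C1HV (FDR = 0.00013). It was lower where the inducers were kept, with log2 fold changes of -1.05 ± 0.12 in C1MDT (FDR = 2.7e-12) and -0.95 ± 0.12 in C1HDT (FDR = 8.8e-11). Nr5a2 did not differ from C1T by the test after withdrawal (0.14 ± 0.13 and 0.17 ± 0.13) and was lower in C1MDT (-0.90 ± 0.14) and C1HDT (-0.64 ± 0.13). Nr0b1 was lower in all 4 groups, with -0.90 ± 0.25 for C1MV, -1.18 ± 0.27 for C1HV, -3.17 ± 0.32 for C1MDT and -2.62 ± 0.30 for C1HDT. In C1MDT vs C1T, 0.504% of tested genes lay at or below the value of Nr0b1.

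Keeping the inducers was compared directly with withdrawing them. The kept and withdrawn groups also differ in dox (100 ng/mL) and TMP (10 μM) during the 4 days, which cannot be told apart from β-catenin. In C1MDT vs C1MV 12.6% of all genes were called and 5 of the 10 receptor genes, and in C1HDT vs C1HV 15.9% and 4. Of the genes called in the latter 56.8% were higher, or 45.2% with scaling by library size only. Esrrb was lower by -1.85 ± 0.11 (FDR = 6.2e-26) in the moderate and -1.45 ± 0.11 (FDR = 1.6e-18) in the high fraction. Nr0b1 was lower by -2.26 ± 0.35 (FDR = 3.5e-05) and -1.43 ± 0.35 (FDR = 0.0045), and Nr5a2 by -1.04 ± 0.13 and -0.81 ± 0.13. No library of the kept groups reached one of the withdrawn groups in any of these 3 genes.

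Markers of several cell types moved with the day 4 groups, endoderm with the widest range. The summed level of the endoderm genes (Gata4, Gata6, Sox17, Sox7, Foxa2, Cxcr4, Dab2 and Amn) ran from 14.4 to 27.6 CPM in C1T, from 289 to 490 CPM in C1MV and from 398 to 457 CPM in C1HV. It ran from 651 to 774 CPM in C1MDT and from 631 to 776 CPM in C1HDT. Sox17, Sox7 and Cxcr4 were at the floor in C1T, Cxcr4 in both withdrawn groups, and none of the 8 genes in the kept groups. Neuroectoderm markers summed to between 281 and 320 CPM in C1T, 352 and 438 CPM in the withdrawn groups, 356 and 366 CPM in C1MDT and 315 and 357 CPM in C1HDT, so that C1HDT alone overlapped C1T. Mesoderm markers lay between 4.80 and 11.0 CPM in C1T and between 16.9 and 29.8 CPM in the other 4 groups, with at least 4 of the 8 mesoderm genes at the floor in each day 4 group. Trophectoderm markers summed to between 204 and 259 CPM at day 0. At day 4 they ran from 65.3 to 85.5 CPM in C1T, 120 to 158 CPM after withdrawal and 88.8 to 111 CPM in the kept groups. Cdx2 and Elf5 were at the floor in every day 4 group, as they were in C1 and C1M, and Elf5 in C1H. Fibroblast markers stayed between 7.53 and 21.9 CPM over all libraries. The part of these shifts, and of the lower stem cell marker sums where the inducers were kept, in the day 4 levels of the 10 genes was not tested.

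**Figure D4:**
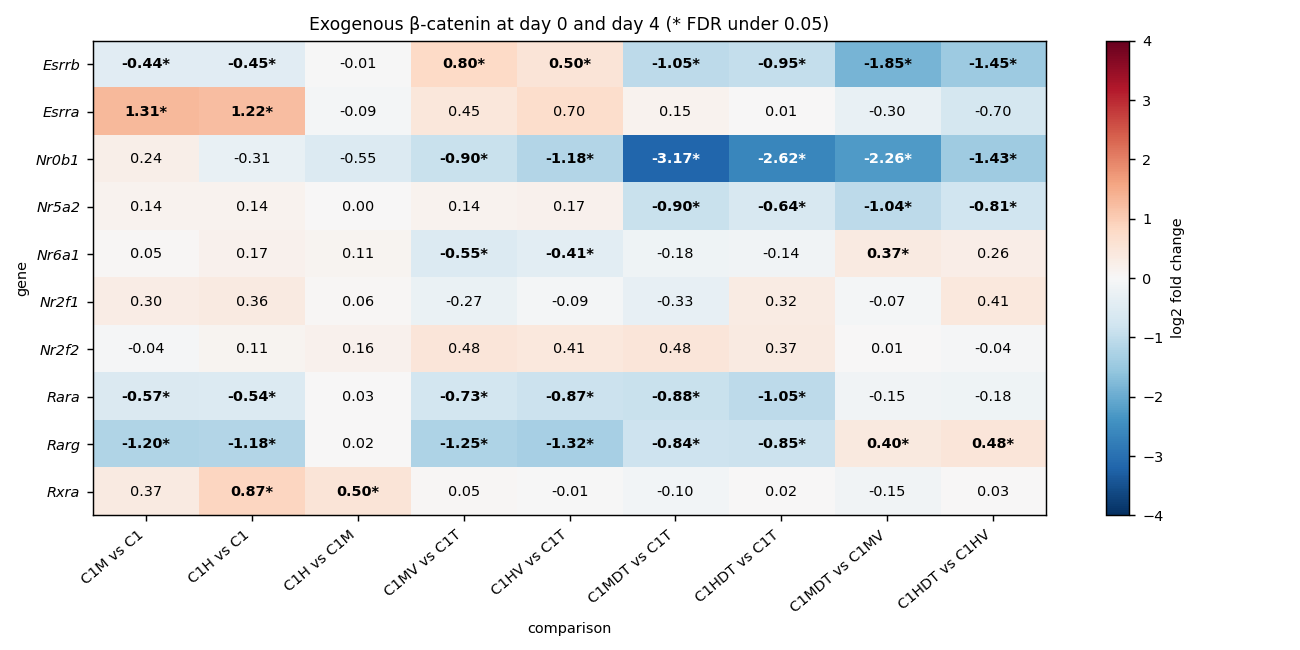
Log2 fold changes (colour and number) of the 10 genes, in rows, for 9 comparisons of exogenous β-catenin, in columns, at day 0 (3 columns), at day 4 against C1T (4) and with the inducers kept against withdrawn (2), with an asterisk and bold type where FDR was under 0.05. Esrrb turned from higher than C1T after withdrawal to lower where the inducers were kept, and Rarg and Rara were lower than their TMP-only control at both days.

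Nr6a1 (chr2:38723370-38927688, minus strand, protein coding) rose in all 5 comparisons of day 4 with day 0, as did Rarg and Rara. Its level was 40.3, 43.0, 46.2 and 41.6 CPM in C1, 39.9, 45.4, 46.3 and 45.0 CPM in C1M and 47.3, 58.5, 39.6 and 45.8 CPM in C1H. The 3 day 0 groups overlapped. The day 4 values were 120, 129, 112 and 80.2 CPM in C1T, 72.9, 84.0, 83.6 and 60.6 CPM in C1MV and 79.0, 84.7, 92.4 and 80.0 CPM in C1HV. With the inducers kept it was 103, 95.8, 105 and 91.5 CPM in C1MDT and 96.2, 114, 90.9 and 105 CPM in C1HDT. All day 4 libraries were above all day 0 libraries, and C1T, whose replicate 4 was its lowest, overlapped each of the other 4 groups. Nr6a1 rose by 0.79 ± 0.12 in C1MV vs C1M, 1.15 ± 0.11 in C1MDT vs C1M, 0.82 ± 0.12 in C1HV vs C1H and 1.08 ± 0.11 in C1HDT vs C1H.

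The rise of Nr6a1 was smaller than in C1T after withdrawal, by -0.60 ± 0.17 in C1MV (FDR = 0.0039) and -0.57 ± 0.17 in C1HV (FDR = 0.0062). The C1HV value lost its call without C1H replicate 2 (-0.43, FDR = 0.070) and without C1T replicate 2 (-0.45, FDR = 0.051). Against C1T at day 4, Nr6a1 was lower by -0.55 ± 0.11 in C1MV (FDR = 1.1e-05) and -0.41 ± 0.11 in C1HV (FDR = 0.0018, or -0.30 and 0.051 without C1T replicate 2). The kept groups had -0.18 ± 0.10 and -0.14 ± 0.10 and were not called. Nr6a1 was higher in C1MDT than in C1MV by 0.37 ± 0.11 (FDR = 0.0099). Without C1MV replicate 4 this was 0.30 (FDR = 0.055) and without C1MDT replicate 3 it was 0.33 (FDR = 0.051).

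Among Rara, Rarg and Rxra, Rarg (chr15:102234938-102257517, minus strand, protein coding) had the largest changes over the 4 days. It encodes a retinoic acid receptor found in early embryos and later in epithelia. Its first listed promoter window, chr15:102257523-102257772 on the minus strand, is shown because Rarg had the lowest FDR of the 10 genes in C1T vs C1. Capitals mark the half-site on the opposite strand (TGACCT), 225 bases before the start, and the TCF/LEF core does not occur in it.
Rarg: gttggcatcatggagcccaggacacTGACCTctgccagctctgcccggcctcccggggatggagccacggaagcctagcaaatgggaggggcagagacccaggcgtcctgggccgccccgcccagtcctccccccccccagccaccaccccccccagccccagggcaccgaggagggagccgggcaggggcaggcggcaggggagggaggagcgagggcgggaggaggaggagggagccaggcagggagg

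Rarg was 116, 117, 117 and 111 CPM in C1, 51.8, 50.7, 50.2 and 47.4 CPM in C1M and 50.1, 46.3, 48 and 59.7 CPM in C1H. Every C1 library was above every library of the sorted fractions, which overlapped each other. At day 4 it was 438, 427, 393 and 425 CPM in C1T, 201, 192, 148 and 165 CPM in C1MV and 193, 144, 170 and 163 CPM in C1HV. With the inducers kept it was 233, 220, 241 and 242 CPM in C1MDT and 224, 230, 233 and 248 CPM in C1HDT. The groups stood in 5 levels without overlap, C1T first, then the kept groups, the withdrawn groups, C1, and the sorted fractions of day 0.

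Rarg was lower than C1 at day 0 by -1.20 ± 0.10 in C1M (FDR = 4e-21) and -1.18 ± 0.10 in C1H (FDR = 7.6e-21). In these comparisons 2.73% and 2.72% of tested genes lay at or below it. At day 4 it was lower than C1T in all 4 groups, with -1.25 ± 0.08 and -1.32 ± 0.08 after withdrawal (C1MV and C1HV) and -0.84 ± 0.08 and -0.85 ± 0.08 with the inducers kept (C1MDT and C1HDT). The kept groups were above the withdrawn ones, by 0.40 ± 0.08 in the moderate fraction (FDR = 7.5e-05) and 0.48 ± 0.08 in the high fraction (FDR = 2.6e-06). Over the 4 days Rarg rose by 1.82 ± 0.10 and 1.72 ± 0.10 with withdrawal (C1MV and C1HV) and by 2.23 ± 0.09 and 2.2 ± 0.09 without it (C1MDT and C1HDT). The rise exceeded that in C1T by 0.36 ± 0.13 in C1MDT (FDR = 0.027) and 0.33 ± 0.13 in C1HDT (FDR = 0.039). The first was 0.33 (FDR = 0.054) without C1T replicate 3. The second had FDR between 0.054 and 0.085 without C1H replicate 2 or 3, C1T replicate 3 or C1HDT replicate 4, and 5 of the 7 other settings also ended its call.

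Rara (chr11:98927818-98974942, plus strand, protein coding) encodes the retinoic acid receptor that is expressed in most tissues. Its level was 37.8, 23.2, 20.8 and 37.8 CPM in C1, 14.8, 16.0, 25.4 and 25.2 CPM in C1M and 20.1, 25.4, 20.9 and 16.8 CPM in C1H. The C1 libraries stood in 2 pairs, of which the lower overlapped both fractions. Day 4 values were 73.9, 66.2, 56.2 and 47.0 CPM in C1T and between 22.8 and 42.1 CPM in the other 16 libraries, so that C1T did not overlap any of them. Rara rose by 0.86 ± 0.18 in C1MV vs C1M, 0.71 ± 0.18 in C1MDT vs C1M, 0.68 ± 0.18 in C1HV vs C1H and 0.50 ± 0.18 in C1HDT vs C1H. The last was 0.37 (FDR = 0.092) without C1HDT replicate 1.

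At day 4 Rara was lower than C1T, with -0.73 ± 0.16 for C1MV, -0.87 ± 0.16 for C1HV, -0.88 ± 0.16 for C1MDT and -1.05 ± 0.16 for C1HDT (FDR between 5.7e-08 and 0.00012). Kept and withdrawn inducers did not differ by the test (-0.15 ± 0.16 and -0.18 ± 0.18), and no day response differed from that of C1T. At day 0 Rara was lower by -0.57 ± 0.19 in C1M (FDR = 0.015) and -0.54 ± 0.18 in C1H (FDR = 0.022). The C1M call was lost without C1 replicate 1 or 4 or C1M replicate 1 or 2, with -0.45, -0.44, -0.47 and -0.49 and FDR from 0.060 to 0.10. The C1H call was lost without C1 replicate 1 or 4 or C1H replicate 4, with -0.42, -0.41 and -0.47 and FDR from 0.069 to 0.13.

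Rxra (chr2:27676440-27762957, plus strand, protein coding), the shared partner of many receptors, was the 1 gene of the 10 called between the sorted fractions. Its level was 24.7, 24.3, 25.4 and 22.5 CPM in C1, 29.7, 26.9, 30 and 39.2 CPM in C1M and 43.6, 41.8, 42.9 and 50 CPM in C1H. The 3 groups were ordered by mCherry fraction without overlap. Rxra was higher in C1H than in C1 by 0.87 ± 0.15 (FDR = 9.4e-07) and higher in C1H than in C1M by 0.50 ± 0.14 (FDR = 0.029), while C1M vs C1 gave 0.37 ± 0.16 (FDR = 0.071). The difference between the fractions kept its sign in every setting, but DESeq2 gave it no adjusted p, and leaving out C1M replicate 1, 2 or 3 or C1H replicate 1, 2 or 4 ended its call, with 0.44 to 0.53 and FDR from 0.052 to 0.17. At day 4 Rxra ran from 22.2 to 36.1 CPM over 5 overlapping groups. It fell by 0.65 ± 0.15 in C1HV vs C1H (FDR = 0.00011) and by 0.62 ± 0.14 in C1HDT vs C1H (FDR = 6.6e-05). These responses differed from that of C1T, by -0.88 ± 0.22 (FDR = 0.0013) and -0.86 ± 0.22 (FDR = 0.0012).

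Nr2f1 (chr13:78188973-78199757, minus strand, protein coding) was measured at low depth, from 3.63 to 12.2 CPM at day 0 and from 1.43 to 7.18 CPM at day 4. It fell by 1.37 ± 0.36 in C1MV vs C1M (FDR = 0.00084), 1.44 ± 0.35 in C1MDT vs C1M (FDR = 0.00027), 1.26 ± 0.37 in C1HV vs C1H (FDR = 0.0026) and 0.85 ± 0.33 in C1HDT vs C1H (FDR = 0.020). The last was lost without C1H replicate 1 (-0.74, FDR = 0.069), C1H replicate 4 (-0.68, FDR = 0.092) or C1HDT replicate 1 (-0.50, FDR = 0.21). All neighbours in the order of its group means overlapped. No other comparison of 2 groups called Nr2f1, with C1T vs C1 at -0.81 ± 0.39 (FDR = 0.073). An annotated antisense transcript, A830082K12Rik, overlaps it and had 46 reads over all libraries.

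Nr2f2 (chr7:70351944-70366735, minus strand, protein coding) had the smallest fold between its highest and lowest group means (1.54, 18.8 against 12.2 CPM), with libraries from 8.82 to 18.1 CPM at day 0 and from 11.4 to 23.5 CPM at day 4. It rose by 0.60 ± 0.21 in C1MV vs C1M (FDR = 0.013) and by 0.60 ± 0.20 in C1MDT vs C1M (FDR = 0.0083). The first was 0.48 (FDR = 0.066) without C1M replicate 2. In C1HV vs C1H and C1HDT vs C1H it had 0.37 ± 0.21 and 0.33 ± 0.20 and was not called. All neighbours in the order of its 8 group means overlapped.

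Esrra (chr19:6910977-6921813, minus strand, protein coding), a regulator of mitochondrial metabolism, was the paralog of Esrrb in this set and had few reads. It was 2.52, 3.96, 5.19 and 3.35 CPM in C1, 12.7, 8.51, 8.47 and 7.43 CPM in C1M and 5.45, 8.01, 12.1 and 9.24 CPM in C1H. Both fractions were above all C1 libraries and overlapped each other. Esrra was higher by 1.31 ± 0.34 in C1M (FDR = 0.0017) and 1.22 ± 0.35 in C1H (FDR = 0.0043), where Esrrb was lower. At day 4 it ran from 1.44 to 10.3 CPM and no group differed from C1T by the test, and neighbours in the order of all 8 group means overlapped. It fell by 0.68 ± 0.31 in C1HDT vs C1H (FDR = 0.049), a call that ended in 6 of the 8 settings leaving out 1 of these libraries, with -0.44 (FDR = 0.24) without C1HDT replicate 2 and -0.46 (FDR = 0.25) without C1H replicate 3. The 3′ end of Esrra lies inside Trmt112 on the opposite strand, which had 10366 reads over all libraries. Whether the counting used strand is not given in the sources used here, so reads of the pair cannot be told apart with certainty.

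Over all 32 libraries, log2 CPM of Esrrb had a Pearson r of 0.97 with Nr5a2, 0.84 with Nr0b1, -0.90 with Nr6a1 and -0.78 with Rarg, and Rarg had 0.86 with Nr6a1 and 0.78 with Rara. These values describe points that share libraries and fall into groups, mainly by day. The genes most like Esrrb were Zfp42 (Rex1, a marker of naive ESCs) and Mybl2 (a cell cycle transcription factor), both with r = 0.98. Those most like Nr5a2 were Jam2 (0.97) and Atp2b2 (0.96), and those most like Nr0b1 were Iqgap3 (0.93) and Safb2 (0.91). Nr6a1 was closest to Marcks (0.96) and Pou3f1 (0.95), the latter a marker of the formative epiblast, and Rarg to Slc16a3 and Etv4 (both 0.97). For Rara these were Nolc1 and Psip1 (both 0.85), for Nr2f1 Tmem198 (0.80) and Lrrc75a (0.78), for Rxra Phf11a (0.79) and Usp17la (0.76), for Nr2f2 Bri3 and Abhd14b (both 0.75) and for Esrra Gm21319 (0.72) and Sycp3 (0.69).

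Of 39 other nuclear receptor genes, 28 had enough reads to be tested. In C1T vs C1, 6 of the 28 rose and 4 fell, where 24.4% of all genes rose and 24.9% fell, and the list's median log2 fold change was -0.09 against 0.01 over all genes. Rxrg, a further retinoid X receptor, had 0 reads in all 4 C1 libraries and 9.11 ± 2.63 CPM in C1T, at least 6.12-fold higher when C1 is set to 3 counts per library. Thrb, a thyroid hormone receptor, fell by 2.57 ± 0.42 and Rarb, the third retinoic acid receptor, fell by 2.20 ± 0.52. Rarb and Rarg thus moved in opposite directions in the same comparison.

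In C1HDT vs C1T, 3 of these 28 genes were higher and 5 lower, where 17.4% of all genes were higher and 16.1% lower (median -0.35 against 0.00). Thra was higher by 1.02 ± 0.12, at 85.1 ± 12.6 CPM against 41.2 ± 7.93 CPM, and Ppard by 0.55 ± 0.22. Rxrg was lower by -1.89 ± 0.42. In C1H vs C1, 2 of the 28 were called, both higher, where 13.8% of all genes were higher and 12.1% lower.

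Coregulators, the proteins through which receptors activate or repress, were tested in full (12 genes). In C1T vs C1, 1 rose and 7 fell, where 24.4% of all genes rose and 24.9% fell, with a median of -0.45 against 0.01 over all genes. Nrip1, a corepressor of ligand-bound receptors, fell by 1.24 ± 0.16 and the coactivator Ncoa1 fell by 0.77 ± 0.20. In C1HDT vs C1T 2 were higher and 6 lower (17.4% and 16.1% of all genes), with a median of -0.29 against 0.00. Ncor1, a corepressor, was lower by -1.14 ± 0.07 (382 ± 18.7 CPM against 842 ± 49.1 CPM) and Ncoa1 by -0.91 ± 0.24, and the coactivator Ppargc1b was higher by 0.60 ± 0.22.

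Genes that carry, make or break down retinoids or respond to them were tested in full as well (12 genes). In C1T vs C1, 3 rose and 3 fell, close to the 24.4% and 24.9% of all genes, with a median of 0.53 against 0.01 over all genes. Crabp2, which carries retinoic acid to the nucleus, was at least 14.5-fold higher in C1T (21.6 ± 5.19 CPM) because C1 was at the floor. Aldh1a3, which makes retinoic acid, was at 28.6 ± 0.801 CPM in C1 and at the floor in C1T, at least 18.8-fold lower, and Dhrs3, which reduces retinal, fell by 1.63 ± 0.24. In C1HDT vs C1T 3 were higher and 4 lower (17.4% and 16.1% of all genes), with a median of -0.44 against 0.00. Crabp1, the other cellular carrier of retinoic acid, was at 226 ± 54.1 CPM in C1HDT against 14.9 ± 2.35 CPM in C1T (3.94 ± 0.20), and Stra6, a retinol transporter, was at least 2.64-fold higher. Stra8, a target of retinoic acid, was lower by -2.36 ± 0.35, with C1HDT near the floor (1.67 ± 1.91 CPM against 9.40 ± 2.10 CPM in C1T).

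Lists of pluripotency genes give the setting of these changes. Of 12 naive genes 10 fell and 1 rose in C1T vs C1, where 24.9% of all genes fell and 24.4% rose. Klf4 was at -5.00 ± 0.11, Tfcp2l1 at -4.71 ± 0.09 and Gbx2 at 4.50 ± 0.38. Against C1T, 9 of the 12 were higher and 2 lower in C1MV (15.4% and 14.9% of all genes), and 8 were higher and 2 lower in C1HV (13.7% and 14.3%). With the inducers kept, 2 were higher and 5 lower in C1MDT (16.9% and 16.5%) and 3 higher and 4 lower in C1HDT (17.4% and 16.1%). In C1HDT vs C1T Klf5 was higher by 0.28 ± 0.06, and Gbx2 and Zfp42 were lower by -1.28 ± 0.24 and -1.22 ± 0.18. Of 10 formative genes 9 rose in C1T vs C1, where 24.4% of all genes rose, with Lef1 at 6.75 ± 0.19 and Pou3f1 at 5.88 ± 0.21. In C1HDT vs C1T 6 of them were lower, where 16.1% of all genes were, with Tcf15 at -2.65 ± 0.11 and Dnmt3a at -1.59 ± 0.08. Against C1T, 8 were lower in C1MV (14.9% of all genes), 8 in C1HV (14.3%) and 5 in C1MDT (16.5%). None was higher than C1T in these 4 groups. With the inducers kept rather than withdrawn, 5 were higher in the moderate and 6 in the high fraction, and 0 lower, where 12.6% and 15.9% of all genes were called in either direction.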

How the data were processed

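RNA of 32 libraries in 8 groups of 4 was analysed. Per the paper and the labels, the authors trimmed QuantSeq reads, mapped them with STAR (mm10) and summed unique alignments over Ensembl genes with htseq-count. They deposited raw whole-number counts, one table a library. Rows that name no gene were left out of library sizes. Groups came from the labels, and genes were named and placed with GENCODE for GRCm38 (30934 of 31053 genes had a symbol). The promoter windows came from RefSeq (GRCm38.p6), and all 10 genes matched by symbol.

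A gene was tested where 4 or more libraries reached 1 CPM, with edgeR 4.0.16 in R 4.3.3, with TMM factors and a robust quasi-likelihood fit of all 8 groups, with Benjamini-Hochberg adjustment over 15280 genes and a threshold of 0.05. For log2 CPM a prior count of 2 was used. On data simulated for C1T vs C1 from 15280 genes, 92% of 100 genes changed by 1 on the log2 scale and 100% of 100 changed by 2 were recovered, and 4% of calls were false. Changes were seeded only in genes above a minimum expected count, and no other gene differed. These rates therefore do not cover genes with few reads, such as Esrra and Nr2f1, or data where 49.2% of genes are called. Replicate numbers recur in each group, but libraries that share one did not deviate together (mean r -0.00163), so groups were compared without pairing. Alternatives were RLE factors, library size only, DESeq2 1.42.0, other filters, a replicate block, fits of only the compared groups and each library left out.

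The members and lists were chosen with earlier results of these data known. The text names the 10 genes, Ctnnb1, the 2 genes with the highest r to each member (mean log2 CPM of at least 1), and from each list the 2 largest rises and decreases in C1T vs C1 and C1HDT vs C1T that were called, without overlap of libraries. Some genes that this rule takes are not reported here.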

Additional observations from a re-analysis of the deposited data

Results flagged for a closer look

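Among 80 groups of 4 libraries of the 10 genes, 2 held a library far from the other 3, where chance gives about 1 in 20 groups, or 4. Esrra was 9.67 CPM in C1MV replicate 1 against 6.18 to 6.75 CPM in the others, and Nr5a2 was 77.8 CPM in the same library against 55.9 to 59.2 CPM. This library was not left out of any main value.

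Each of the 10 genes was tested for a day response different from that of C1T, in C1MV, C1MDT, C1HV and C1HDT. Among all tested genes, 22.5% were called for C1MV, 24.4% for C1MDT, 21.9% for C1HV and 25.2% for C1HDT. In the 10 genes, 15 tests of the difference itself were called (edgeR's quasi-likelihood test, FDR under the threshold). All 15 share the C1T and C1 libraries. For C1MV these were Esrrb (log2 difference 1.24), Nr0b1 (-1.15) and Nr6a1 (-0.60). For C1MDT they were Esrrb (-0.61), Nr0b1 (-3.41), Nr5a2 (-1.04) and Rarg (0.36). For C1HV they were Esrrb (0.95), Nr6a1 (-0.57) and Rxra (-0.88). For C1HDT they were Esrrb (-0.50), Nr0b1 (-2.31), Nr5a2 (-0.78), Rarg (0.33) and Rxra (-0.86). Esrrb had positive differences after withdrawal and negative ones with the inducers kept. The largest of the 15 was that of Nr0b1 in C1MDT.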

How the results depend on the processing

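Of 92 called values of the 10 genes, 78 kept their call and direction under each alternative run and 14 lost the call under at least 1, of which 13 lost it on leaving out a library, while 0 reversed. Apart from leaving out libraries, DESeq2 ended 2 calls and gave no adjusted p for 1 more, Rxra in C1H vs C1M, and each of the 6 others ended 1. With the replicate block Esrra in C1HDT vs C1H came to -0.69 (FDR = 0.050), so that 8 of the 10 genes were called there, and no other call changed. In the main fit 9 of the 10 and 55.7% of all genes were called in that comparison. Nr0b1 in the C1MV day response against C1T was -1.13 (FDR = 0.083) when only the groups compared were fitted. In C1H vs C1M, 0 of the 10 genes were called with DESeq2, which gave 5 of them no adjusted p (Rxra had 0.51 ± 0.14), and 2 genes had an unadjusted p under 0.05 there as with edgeR. In the same comparison 2 genes, Rxra and Nr0b1, were called when only the groups compared were fitted, where 570 of all genes were called, against 271. Leaving out 1 library gave between 0 and 1 of the 10 genes and between 117 and 229 of all genes for that comparison. For the day response of C1HDT against that of C1T it gave between 3 and 6 of the 10 genes and between 3480 and 3790 of all 15280 genes. Scaling by library size only moved the median log2 fold change over all genes to between -0.14 and 0.12, and no called value of the 10 genes changed sign under it. Esrra and Nr2f1 had few reads, and their coefficients of variation within groups reached 58.1% and 55.3%. The cause of the lost calls was not tested.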
